A study of Mus musculus with 30 samples.

Results

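The chemokine receptors described here are the products of 9 genes, Ccr1, Ccr2, Ccr3, Ccr7, Cxcr2, Cxcr3, Cxcr4, Cxcr6 and Cx3cr1, taken by their symbols from 26264 genes listed. All 9 passed the filter on low counts, as did 17136 genes in all. They were measured in total RNA of whole mouse tibialis anterior, a shin muscle that lifts the foot. Volumetric muscle loss, the loss of muscle tissue in bulk, had been made 4, 7, 11 or 15 days earlier, or the muscle was uninjured. With both sexes sampled at all 5 times there were 10 groups, and with 3 libraries in each group 6 libraries stood at a time and 30 in the series. The labels name no strain, age, genotype or other treatment, and they do not say whether the libraries came from separate animals, so the tests speak only to variation among these samples, which may be technical.

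Chemokines are small secreted proteins that form gradients in tissue, and their receptors are G protein-coupled receptors on the surface of migrating cells. Binding of the ligand activates inhibitory G proteins, which steer the cytoskeleton and switch on integrins, so the cell adheres and moves toward the source. In injured muscle, Ccr2 is known for bringing monocytes from the blood, Cx3cr1 marks monocytes and macrophages of a later, repair-associated state, and Cxcr2 serves neutrophils. Cxcr3 and Cxcr6 are best known on activated T cells and natural killer cells, Ccr7 on dendritic cells and T cells that travel to lymph nodes, and Ccr3 on eosinophils. Cxcr4, the receptor of Cxcl12, is broader and is found on many leukocytes, endothelial cells and stem or progenitor cells.

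The genes lie in a few clusters. In the RefSeq order, Cxcr6, Ccr1, Ccr3 and Ccr2 follow each other on chromosome 9 with few genes between them, Cx3cr1 lies elsewhere on chromosome 9 beside Ccr8, Cxcr2 lies beside Cxcr1 on chromosome 1, Cxcr4 lies elsewhere on that chromosome, Ccr7 is on chromosome 11 and Cxcr3 on chromosome X. The RefSeq promoter table (GRCm38.p6) held 8 of the 9, without Ccr7. Printed here are the 150 bases before the start of the 4 most abundant receptors at day 4, since they carry most of the counts and their later courses differed. The sequences run 5′ to 3′ on the gene's strand. Capitals mark matches on either strand to the GC box GGGCGG, the TATA box TATAAA or GAGGAA, a longer form of the ETS core GGAA. Matches to GGAA alone were not searched for or marked.
Cxcr4 promoter, chr1:128592300-128592449, minus strand: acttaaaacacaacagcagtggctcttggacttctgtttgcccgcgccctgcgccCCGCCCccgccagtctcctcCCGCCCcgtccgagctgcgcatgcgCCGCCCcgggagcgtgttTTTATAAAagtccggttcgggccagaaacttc
Ccr2 promoter, chr9:124102033-124102182, plus strand: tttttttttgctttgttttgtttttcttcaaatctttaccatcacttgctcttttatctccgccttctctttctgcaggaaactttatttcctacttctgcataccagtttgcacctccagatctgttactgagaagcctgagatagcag
Cx3cr1 promoter, chr9:120068297-120068446, minus strand: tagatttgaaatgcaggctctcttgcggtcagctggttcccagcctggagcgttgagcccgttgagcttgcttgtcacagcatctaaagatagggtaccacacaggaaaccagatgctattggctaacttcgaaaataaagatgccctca
Ccr1 promoter, chr9:123968693-123968842, minus strand: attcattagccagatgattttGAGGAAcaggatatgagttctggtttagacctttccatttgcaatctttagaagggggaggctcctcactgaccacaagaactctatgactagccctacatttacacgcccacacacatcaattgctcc

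In the 250 bases before the start, the Cxcr4 promoter held 19 CpG dinucleotides, more than 80.4% of 27025 promoters, against a median of 6. The other 7 matched receptors had 0 to 4. The GC box was found 3 times before Cxcr4 and in none of the other 7, and it occurred in 32.9% of all promoters of this length. TATAAA was found at 2 overlapping positions before Cxcr4, on opposite strands, and in none of the other 7, against 13.0% of all. GAGGAA occurred once each before Ccr1, Ccr3, Cxcr2 and Cxcr3, against 23.1% of all. These matches describe letters in a window and are not evidence of binding.

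Libraries held between 13089999 and 57277336 counts, and those of day 15 held 13089999 to 30024528. The 8 muscle fibre markers summed to 291030 to 421323 CPM (a gene's count scaled by its library's size and TMM factor) in uninjured muscle and to 7433.75 to 123193 CPM in injured muscle. Xist and the Y-linked Ddx3y went with the labelled sex in 29 libraries. The library labelled female day 11 replicate 3 had 57.4 CPM of Ddx3y and 0.109 CPM of Xist, and was kept under its label. With TMM scaling the median of all genes lay 0.17, 0.24, 0.32 and 0.26 above uninjured muscle on the log2 scale at days 4, 7, 11 and 15, and with library size alone 1.47, 1.42, 1.46 and 1.30 above it, so fold changes are relative to the scaling.

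All 9 receptors were called higher at day 4 than in uninjured muscle, against 40.1% of all genes tested (edgeR's quasi-likelihood test, adjusted p under 0.05 over 17136 genes). At day 7 all 9 were still higher, against 41.6%. At day 11, 8 were higher, all but Cxcr2, against 42.7%, and at day 15, 7 were higher, all but Cxcr2 and Ccr3, against 39.7%. Only Ccr2, Cxcr4 and Cx3cr1 had enough uninjured counts for a fold change, so no median fold change over the 9 is given. In whole muscle, more cells of a type and more RNA per cell cannot be told apart.

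**Figure D1:**
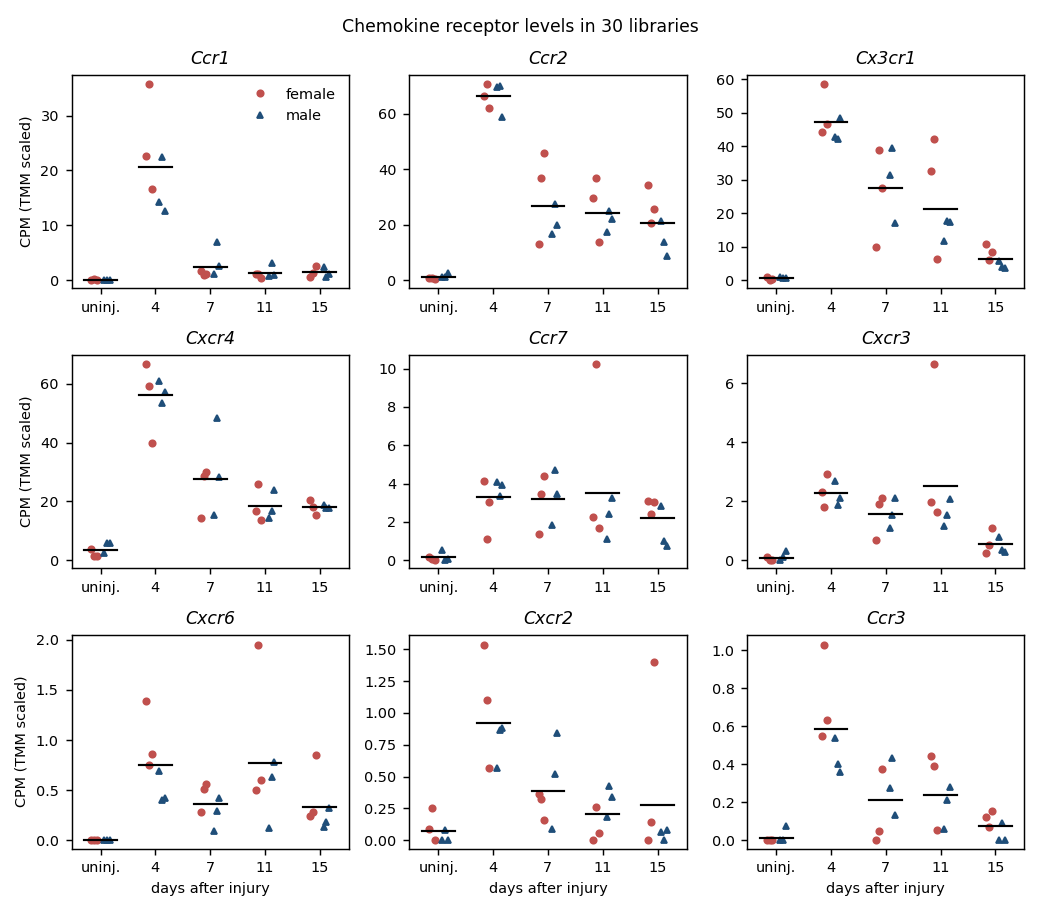
CPM of each receptor (linear axes starting near 0, a separate scale for each gene) against time after injury, with circles for female and triangles for male libraries and a bar at the mean of 6. Day 4 stands highest for Ccr1, Ccr2, Cx3cr1, Cxcr4, Cxcr2 and Ccr3, while the means of Ccr7, Cxcr3 and Cxcr6 at day 11 are as high as at day 4 and hold 1 high library.

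Per kilobase of exon, so that genes can be set side by side, Cxcr4 had the highest mean level of the 9 at every time. It stood at 1.95 ± 1.11 CPM per kilobase in uninjured muscle (SD, n = 6), far above Ccr2 (0.166 ± 0.113) and Cx3cr1 (0.126 ± 0.0620), whose ranges overlapped. At day 4 Cxcr4 reached 31.1 ± 5.06 CPM per kilobase, followed by Cx3cr1 (10.5 ± 1.34), Ccr2 (9.79 ± 0.711) and Ccr1 (7.30 ± 2.98), and the ranges of these 3 overlapped. Below them and apart from them came Ccr7 (1.65 ± 0.578), Cxcr3 (1.32 ± 0.256), Cxcr6 (0.390 ± 0.188), Cxcr2 (0.302 ± 0.1198) and Ccr3 (0.179 ± 0.0734). Ccr7 and Cxcr3 overlapped, as did the last 3, and Cxcr3 lay above Cxcr6 without overlap. By day 15 the order was Cxcr4 (10.002 ± 0.905), Ccr2 (3.05 ± 1.33), Cx3cr1 (1.41 ± 0.619), Ccr7 (1.10 ± 0.532), Ccr1 (0.494 ± 0.299), Cxcr3 (0.314 ± 0.190), Cxcr6 (0.174 ± 0.136), Cxcr2 (0.0922 ± 0.180) and Ccr3 (0.0224 ± 0.0194). The Cxcr4 libraries overlapped with those of no other receptor at days 4 or 15, and from Ccr2 down each receptor overlapped with the next at day 15.

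**Figure D2:**
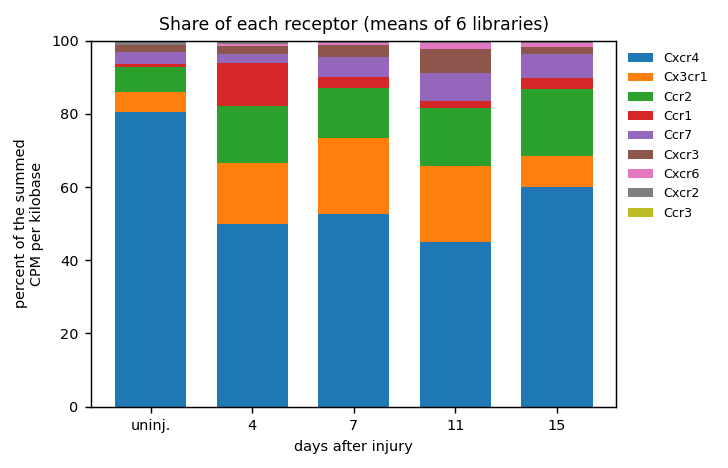
Stacked bars, from 0 to 100 percent, of each receptor's part of the summed mean CPM per kilobase of all 9, by days after injury. Cxcr4 takes 80.6% in uninjured muscle, 49.8% at day 4 and 60.0% at day 15, Ccr1 takes 11.7% at day 4 and 2.92% at day 7, and Cx3cr1 takes 20.8% at day 11 and 8.47% at day 15.

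The receptors of monocytes and macrophages, Ccr2, Cx3cr1 and Ccr1, are described before the others. Ccr2, the receptor of Ccl2, lay at 0.528, 0.849 and 2.60 CPM in uninjured muscle (lowest, median and highest of 6 libraries) and at 58.7, 67.8 and 70.6 CPM at day 4. The day 4 libraries were close together and lay above all others without overlap, and Ccr2 rose by 6.02 ± 0.35 (log2 ± SE, adjusted p = 1.18e-12). At day 7 the lowest, median and highest values were 13.1, 23.7 and 45.8 CPM, at day 11 13.7, 23.3 and 36.7 CPM, and at day 15 8.51, 20.9 and 34.1 CPM. No injured library overlapped with an uninjured one, and the log2 fold changes were 4.68 ± 0.33, 4.55 ± 0.33 and 4.27 ± 0.33 at days 7, 11 and 15. The highest uninjured value came from male uninjured replicate 3, and without it the uninjured mean was 0.826 in place of 1.12 CPM.

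Cx3cr1, the receptor of the membrane-bound chemokine Cx3cl1, lay at 0.167, 0.588 and 0.919 CPM in uninjured muscle and at 42.2, 45.4 and 58.5 CPM at day 4. It rose by 6.39 ± 0.45 (adjusted p = 1.42e-11). Its lowest, median and highest values were 9.99, 29.5 and 39.5 CPM at day 7, 6.21, 17.6 and 42.2 CPM at day 11, and 3.49, 5.85 and 10.7 CPM at day 15. Days 7 and 11 were thus widely spread, whereas all 6 day 15 libraries were low but above the uninjured ones. The log2 fold changes against uninjured muscle were 5.61 ± 0.44, 5.20 ± 0.44 and 3.43 ± 0.42 at days 7, 11 and 15.

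Ccr1, a receptor of Ccl3, Ccl5, Ccl6, Ccl7 and Ccl9 on monocytes, macrophages and neutrophils, had 10 counts over the 6 uninjured libraries and 8636 at day 4. At day 4 its lowest, median and highest values were 12.6, 19.5 and 35.7 CPM, against at most 0.167 CPM in uninjured muscle. With so few uninjured counts the level is given as a ratio of summed, scaled counts, which was 305 at day 4 (95% interval 130 to 939, counted in read pairs and covering counting error only). For days 7, 11 and 15 the ratios were 40.3 (17.1 to 125), 18.1 (7.55 to 56.5) and 21.6 (8.98 to 67.8). Ccr1 at days 7, 11 and 15 lay between 0.327 and 7.02 CPM, below every day 4 library and above every uninjured one.

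Cxcr4 lay at 1.4998, 3.12 and 5.93 CPM in uninjured muscle and at 39.8, 58.2 and 66.7 CPM at day 4, with a log2 fold change of 4.10 ± 0.30 (adjusted p = 2.33e-11). Day 7 gave 14.4, 28.5 and 48.4 CPM, day 11 13.6, 16.7 and 25.8 CPM, and day 15 15.4, 18.1 and 20.5 CPM. The groups of injured libraries overlapped in part with each other and none with uninjured muscle, and the day 15 libraries were close together. Its log2 fold changes were 3.06 ± 0.29, 2.49 ± 0.28 and 2.46 ± 0.28 at days 7, 11 and 15.

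Cxcr3, Cxcr6 and Ccr7, the last known on dendritic cells as well as T cells, stood at lower levels. Cxcr3, the receptor of Cxcl9 and Cxcl10, had 13 uninjured counts and reached 1.82, 2.22 and 2.93 CPM at day 4, 0.676, 1.72 and 2.12 CPM at day 7, 1.16, 1.80 and 6.64 CPM at day 11, and 0.247, 0.432 and 1.09 CPM at day 15, against at most 0.305 CPM in uninjured muscle. The lowest day 15 libraries overlapped with the highest uninjured one, and the ratios to uninjured muscle were 26.8 (12.2 to 73.4), 19.7 (8.93 to 54.3), 32.1 (14.6 to 88.3) and 6.74 (2.85 to 19.4) at the 4 days. Cxcr6, the receptor of Cxcl16, had no counts in any uninjured library, and at a floor of 6 counts over the group (3 read pairs) it was at least 18.1-fold higher at day 4, 9.28-fold at day 7, 19.8-fold at day 11 and 8.03-fold at day 15. Its levels were low throughout, from 0.0920 to 1.95 CPM in injured muscle. Ccr7 had 20 uninjured counts and lay at 1.10, 3.64 and 4.13 CPM at day 4, 1.35, 3.46 and 4.71 CPM at day 7, 1.10, 2.35 and 10.2 CPM at day 11, and 0.730, 2.62 and 3.08 CPM at day 15, against at most 0.532 CPM in uninjured muscle. No injured library overlapped with an uninjured one, and the 4 injured days overlapped with each other. The Ccr7 ratios were 22.7 (12.3 to 47.6), 25.4 (13.7 to 53.3), 27.3 (14.7 to 57.4) and 15.6 (8.27 to 33.2).

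The granulocyte receptors Cxcr2 and Ccr3 had the lowest mean CPM per kilobase of the 9 at each injured day. Cxcr2, which binds Cxcl1, Cxcl2, Cxcl3, Cxcl5 and Ppbp, had 10 counts in uninjured muscle and 0.566, 0.873 and 1.54 CPM at day 4, a ratio of 13.3 (5.61 to 41.5). At day 7 it was 0.0920 to 0.845 CPM and overlapped with the uninjured libraries (0 to 0.250 CPM), and the ratio was 5.77 (2.33 to 18.4). Its differences at days 11 and 15 did not pass the test (adjusted p = 0.111 and 0.218), with ratios of 3.09 (1.16 to 10.4) and 4.24 (1.57 to 14.3). Both passed with library size alone (adjusted p = 0.00606 and 0.0363), as did Ccr3 at day 15 (0.0447).

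Ccr3, the receptor of the eotaxins Ccl11 and Ccl24, had 2 counts in uninjured muscle, both in male uninjured replicate 3, and 244 at day 4, where it lay at 0.359, 0.546 and 1.03 CPM. Its ratios at the 4 days were 43.0 (7.58 to 1714), 17.2 (2.89 to 699), 17.4 (2.87 to 713) and 4.82 (0.539 to 228), with wide intervals at each. At days 7, 11 and 15 its libraries (0 to 0.442 CPM) overlapped with the uninjured ones. With every library thinned to the smallest total, Ccr3 at days 7 and 11 (adjusted p = 0.0645 and 0.0599) and Cxcr2 at day 7 (0.114) no longer passed. The 8 eosinophil markers summed to 0.527 to 4.13 CPM in injured muscle and 0 to 0.725 CPM in uninjured muscle. Their median sums were 1.08, 1.15, 1.02 and 1.52 CPM at days 4, 7, 11 and 15. At each injured day 2 of the 8 had no counts, and in uninjured muscle 3 had none. Of those 8, 3 had enough counts to be tested, and 2, 3, 3 and 2 were higher at days 4, 7, 11 and 15, beside the 40.1, 41.6, 42.7 and 39.7% of all genes. From day 4 to day 15, 2 of these 3 rose and 1 fell, beside 27% of all genes that were lower, whereas Ccr3 fell by 3.27. The part of these markers in the Ccr3 level was not tested.

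Between day 4 and day 7, 3 of the 9 receptors fell, against 16.7% of all genes that were lower. Ccr1 fell by 3.26 ± 0.46 on the log2 scale (adjusted p = 7.25e-05), Ccr2 by 1.34 ± 0.27 (0.000917) and Cxcr4 by 1.04 ± 0.26 (0.00433). For Ccr1 and Ccr2 no library overlapped between the 2 days. For Cx3cr1 none overlapped either, but its difference of -0.78 ± 0.34 did not pass (adjusted p = 0.0724). Against a 2-fold change Ccr1 alone passed. Ptprc, which encodes CD45 on all leukocytes, also fell over this interval by 0.999 ± 0.29 (adjusted p = 0.0108). Without male day 7 replicate 2, 5 receptors were lower, Ccr3 (adjusted p = 0.0447) and Cx3cr1 (0.0436) in addition. Without female day 11 replicate 3, the library at odds with its label, Ccr3 and Cx3cr1 were again added (0.0459 and 0.0228). Cx3cr1 also passed without female day 7 replicate 2 (0.0331) and Ccr3 without female day 7 replicate 3 (0.00573).

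From day 7 to day 11 none of the 9 was called, against 0.0584% of all genes (2 receptors at an unadjusted p under 0.05, Cxcr4 and Cxcr6, and none called by DESeq2). From day 11 to day 15, 2 fell, against 2.25% of all genes that were lower. Cxcr3 fell by 2.08 ± 0.46 (adjusted p = 0.0100) and Cx3cr1 by 1.77 ± 0.35 (0.00463). Cxcr3 libraries did not overlap between these days, and those of Cx3cr1 did. Without female day 11 replicate 2, Cxcr3 had a difference of -1.61 and no longer passed (adjusted p = 0.0574), and against a 2-fold change neither receptor passed.

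Over the whole interval from day 4 to day 15, 8 of 9 receptors fell, all but Ccr7, against 27% of all genes that were lower. The falls were 3.83 ± 0.48 for Ccr1, 2.96 ± 0.37 for Cx3cr1, 1.75 ± 0.28 for Ccr2, 1.64 ± 0.27 for Cxcr4, 2.05 ± 0.45 for Cxcr3, 3.27 ± 0.77 for Ccr3, 2.42 ± 0.75 for Cxcr2 and 1.17 ± 0.49 for Cxcr6. That of Cxcr6 lay at the threshold (adjusted p = 0.0486) and was lost with no filter on low counts (0.0528), with thinned counts (0.0785) and in 10 of 30 fits that left out 1 library (up to 0.110). Those libraries were replicates 1 and 3 of day 4 in each sex, replicates 1 and 2 of day 15 in each sex, male day 11 replicate 2 and female day 7 replicate 2. Against a 2-fold change neither Cxcr2 (adjusted p = 0.0801) nor Cxcr6 (0.589) passed for this interval. At day 15 Ccr3 had 10 counts in all and Cxcr2 had 44, 36 of them in female day 15 replicate 3, so the falls of Ccr3 and Cxcr2 are imprecise. Ccr7 differed by -0.63 ± 0.50 (adjusted p = 0.296). In a joint test for any difference among the 4 injured days, 7 receptors passed, against 52.9% of all genes. Ccr7 (adjusted p = 0.595) and Cxcr6 (0.0591) did not, and Cxcr6 passed with DESeq2 (0.0299) and with library size alone (0.0356). It also passed without male day 7 replicate 3 (0.0481), male day 11 replicate 1 (0.0217), female day 11 replicate 1 (0.0403) or 3 (0.0385), or female day 15 replicate 3 (0.0263).

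**Figure D3:**
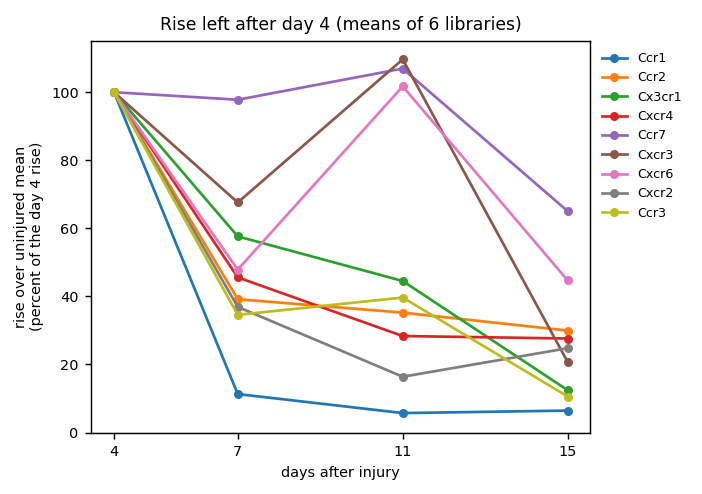
Each line gives 1 receptor's rise of the mean CPM over uninjured muscle at a day as a percent of its rise at day 4 (vertical axis), against days after injury. Ccr1 keeps 11.3% at day 7, Ccr2 and Cxcr4 keep 29.95% and 27.6% at day 15, Cx3cr1 keeps 44.5% at day 11 and 12.4% at day 15, and Ccr7, Cxcr3 and Cxcr6 stand at 107%, 110% and 102% at day 11.

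The course of Cx3cr1 against Ccr2 was followed within each library, as the log2 ratio of the counts of the genes, which were not scaled to length. The ratio had its lowest, median and highest values at -2.13, -0.56 and 0.29 in uninjured muscle, where few counts make it imprecise. It lay at -0.73, -0.50 and -0.27 at day 4, -0.73, -0.07 and 0.91 at day 7, -1.14, -0.40 and 0.20 at day 11, and -1.85, -1.73 and -1.27 at day 15. All 6 day 15 libraries lay below every library of days 4, 7 and 11, in both sexes. The 12 macrophage markers summed to 212 to 2054 CPM at day 11 and 224 to 921 CPM at day 15, with 2 of 12 lower from day 11 to day 15, and 1 of 7 tested monocyte markers was lower, beside 2.25% of all genes. Their part in the ratio was not tested.

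**Figure D4:**
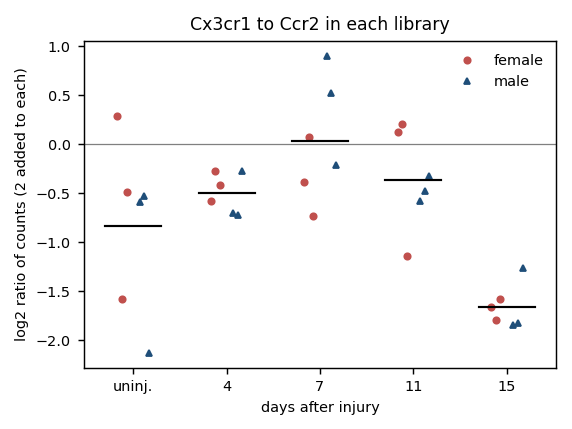
The log2 ratio of Cx3cr1 to Ccr2 counts in each library (vertical axis, 2 added to each count) against days after injury, with circles for female and triangles for male libraries and a bar at the mean of 6. The mean is -0.50 at day 4, 0.03 at day 7, -0.36 at day 11 and -1.66 at day 15, where all points sit between -1.85 and -1.27.

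Each receptor was also set against the leukocyte gene Ptprc within the library, as a description with no test. Ptprc itself lay between 0.667 and 1.98 CPM in uninjured muscle, and its mean was 76.8, 38.4, 27.9 and 17.1 CPM at the 4 days. The log2 ratio of Ccr1 to Ptprc was -2.63 to -1.38 at day 4 and -5.71 to -2.97 at day 7, with no overlap, and stayed between -5.53 and -2.85 at days 11 and 15. The ratio of Ccr2 to Ptprc had means of -0.20, -0.51, -0.16 and 0.24 at the 4 days. That of Cxcr4 was 0.91 to 2.19 in uninjured muscle and at most -0.04 at days 4, 7 and 11, with no overlap. At day 15 it ran from -0.67 to 1.04, with a mean of 0.17, and overlapped with the uninjured libraries. Cxcr3 to Ptprc had means of -5.05, -4.51, -3.58 and -4.82, and its day 11 libraries (-4.22 to -3.02) lay above every day 15 library (-5.88 to -4.41). Ccr7 to Ptprc had means of -4.64, -3.54, -3.24 and -3.01, and its 6 day 4 libraries (-6.36 to -4.09) lay below every library of days 7, 11 and 15 (-3.92 to -2.40).

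**Figure D5:**
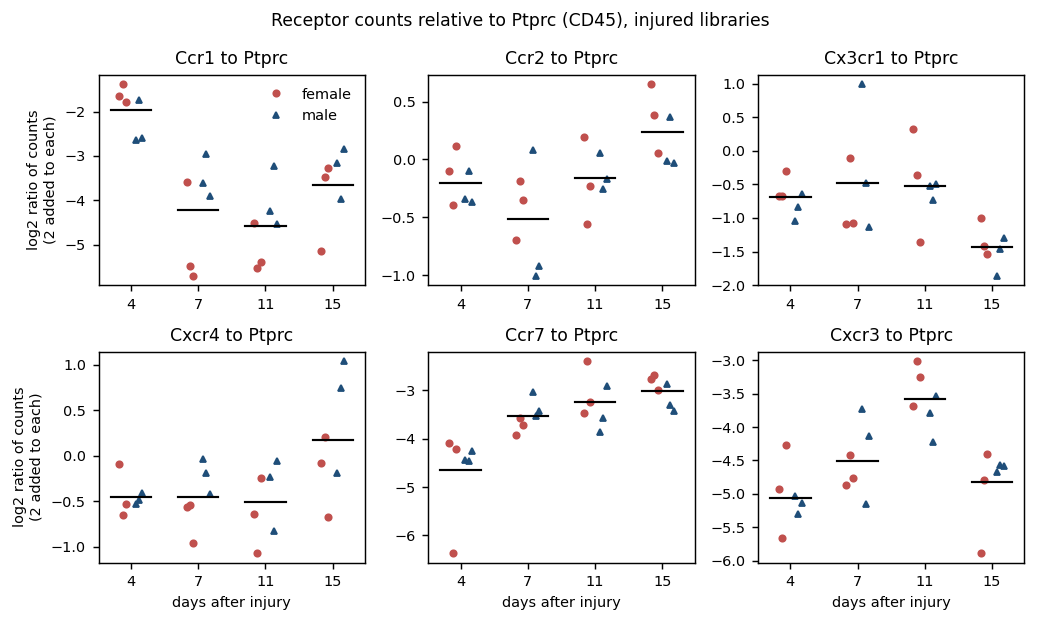
The log2 ratio of 6 receptors' counts to Ptprc counts in each injured library (vertical axes, 2 added to each count, a separate scale for each panel) against days after injury, with circles for female and triangles for male libraries and a bar at the mean of 6. The Ccr1 mean goes from -1.96 at day 4 to -4.21 at day 7, the Cx3cr1 mean from -0.53 at day 11 to -1.43 at day 15, and the Ccr7 mean from -4.64 at day 4 to -3.01 at day 15.

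The day 11 levels of Ccr7, Cxcr3 and Cxcr6 rested in part on 1 library. Female day 11 replicate 2 held the highest day 11 value of Ccr7 (10.2 CPM), Cxcr3 (6.64 CPM) and Cxcr6 (1.95 CPM), and without it the day 11 means were 2.15, 1.67 and 0.530 in place of 3.49, 2.50 and 0.767 CPM. The same library had the highest sum of the 12 T cell markers (82.1 CPM, against 25.8 to 39.4 in the other day 11 libraries) and of the 10 natural killer and cytotoxic markers (65.2 CPM, against 4.61 to 16.8). T cell markers summed to between 6.17 and 10.2 CPM in uninjured muscle, and their lowest and highest sums were 10.4 and 19.2 CPM at day 4, 17.3 and 35.3 CPM at day 7, and 12.3 and 19.5 CPM at day 15. From day 11 to day 15, 6 of 12 T cell markers and 2 of 10 natural killer and cytotoxic markers fell, beside 2.25% of all genes, and no marker of either list was at 0 in all libraries of a time. Of 9 dendritic cell markers, 8 were higher than in uninjured muscle at each day, beside 39.7 to 42.7% of all genes. None of the 9 fell from day 11 to day 15. The part of these markers in the levels of Ccr7, Cxcr3 and Cxcr6 was not tested.

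Cxcr2 was likewise high in 1 library at day 15, together with neutrophil markers. In female day 15 replicate 3 Cxcr2 stood at 1.40 CPM, against 0 to 0.143 CPM in the other day 15 libraries, and the 12 neutrophil markers summed to 62.2 CPM, against 7.89 to 19.97 CPM. Without that library the day 15 mean of Cxcr2 was 0.0578 in place of 0.281 CPM. Of the 12 neutrophil markers 9 had enough counts to be tested, and 8 rose and none fell at day 4, beside 40.1% of all genes that were higher. Their sum was 1.67 to 4.61 CPM in uninjured muscle, 65.2 to 113 CPM at day 4 and 26.9 to 70.4 CPM at day 7. Ngp, Ltf and Stfa2l1, genes of maturing or activated neutrophils, were at 0 in uninjured muscle, and Ngp also at day 4. Their part in the Cxcr2 level was not tested.

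Most chemokines that bind these receptors rose as well. Of 21 ligands 19 were tested, and 17 rose at day 4 and 1 fell, beside 40.1% of all genes that were higher. The median log2 fold change was 4.95, that of Ccl6, beside 0.17 over all genes. It was 4.64 with Cxcl3 and Cxcl5, which had no uninjured counts, set against a floor of 6 counts. Ccl3, Ccl7, Ccl12 and Cxcl2 also enter it, with too few uninjured counts for a fold change of their own. At days 7, 11 and 15, 15, 16 and 16 were higher, beside 41.6, 42.7 and 39.7% of all genes. Of the Ccr2 ligands, Ccl2 lay between 0.0460 and 0.572 CPM in uninjured muscle and between 28.0 and 71.2 CPM at day 4, and Ccl7 and Ccl12 were also higher. Ccl2 then fell by 2.54 from day 4 to day 7, as did Ccl7 by 2.63 and Ccl12 by 1.59. Of the Ccr1 ligands, Ccl6 and Ccl9 rose by 4.95 and 5.27 at day 4 and remained higher at the later days, and Ccl3 had 17 uninjured counts and reached 8.38 ± 1.48 CPM. The Ccr3 ligand Ccl11 fell by 1.66 at day 4 (uninjured 9.56 to 14.5 CPM, day 4 1.94 to 6.03 CPM) and rose by 0.96 from day 11 to day 15, while Ccl24 rose by 1.73 at day 4.

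Of the Cxcr2 ligands, Cxcl1 had its peak late. It lay at 1.13, 1.82 and 2.36 CPM at day 4, 0.537, 0.969 and 1.71 CPM at day 11 and 3.61, 12.9 and 67.2 CPM at day 15, a rise of 3.76 from day 11 to day 15 with no overlap. The highest value was again that of female day 15 replicate 3. Cxcl5, with no uninjured counts, reached 3.52 ± 2.05 CPM at day 4. The Cxcr3 ligands Cxcl9 and Cxcl10 rose at day 4 by 1.503 and 4.15, and female day 11 replicate 2 held 65.8 CPM of Cxcl9 and 89.0 CPM of Cxcl10, against at most 20.01 and 9.64 CPM in the other day 11 libraries. The Cxcr6 ligand Cxcl16 rose by 5.14 at day 4 and the Cx3cr1 ligand Cx3cl1 by 1.85, and Cx3cl1 stood at means of 11.4, 11.3, 11.4 and 10.6 CPM over the 4 days. The Cxcr4 ligand Cxcl12 passed the test at no day against uninjured muscle (142.5 ± 25.9 CPM uninjured, 149.9 ± 26.5 CPM at day 4, 119.0 ± 27.4 CPM at day 15). The Ccr7 ligands Ccl19 and Ccl21a were listed at 0 counts in all 30 libraries. Near-identical copies of both exist in the mouse genome, and no source used here says how shared reads were treated.

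The machinery that receptors act through rose as well. Of 24 signalling and migration genes 23 rose at day 4 and 1 fell, beside 40.1% of all genes that were higher, with a median log2 fold change of 4.02 beside 0.17. At day 15, 18 were higher and 2 lower, beside 39.7% of all genes that were higher. Itgb2, the common chain of leukocyte integrins, rose by 6.50 ± 0.49 at day 4 and Plcb2, a phospholipase below the G protein, by 5.90 ± 0.50. Grk2, a kinase that desensitizes G protein-coupled receptors, fell by 0.60 at day 4. Rgs1, which quenches G protein signals, had a mean of 8.77 CPM at day 4, 4.25 CPM at day 11 and 18.0 CPM at day 15, a rise of 1.95 between the last 2.

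Other members of the family were counted as well. Of 9 further conventional chemokine receptors 5 had enough counts, and 2 were higher and none lower at each of the 4 days, a share near the 39.7 to 42.7% of all genes that were higher. Ccr9, a receptor of gut-homing lymphocytes, was among them, at 0.169 CPM in uninjured muscle and 0.628, 0.786, 0.959 and 0.778 CPM at the 4 days. Xcr1, Ccr10 and Cxcr5 passed at no day. The 5 atypical receptors bind or scavenge chemokines without G protein signalling. At day 4, 1 was higher and 1 lower, beside 40.1% of all genes that were higher. Ackr4 rose then by 1.26 ± 0.44 and Ccrl2 fell by 1.77 ± 0.24. At days 7 and 11, 2 and 3 were higher, beside 41.6 and 42.7% of all genes, and 2 were lower at each. Ackr3 had ratios of summed, scaled counts to uninjured muscle of 0.419 (0.387 to 0.453) at day 7 and 0.421 (0.387 to 0.458) at day 11. At day 15, Ackr1, Ackr2 and Ackr4 were higher by 1.84, 2.55 and 3.10, beside 39.7% of all genes that were higher. Ccrl2 was lower by 1.54. From day 4 to day 15 Ackr1, Ackr2 and Ackr4 rose by 1.30, 2.35 and 1.84, and none of the 5 fell, beside 27% of all genes that were lower.

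No receptor was called for a difference between the sexes by edgeR or DESeq2. In uninjured muscle none of the 9 passed, against 0.642% of all genes (2 at an unadjusted p under 0.05). For the sex difference in the response none passed at day 4 (0.0467% of all genes, 1 receptor at an unadjusted p under 0.05), day 7 (0.123%, 1), day 11 (0.0584%, 2), day 15 (0.21%, 1) or jointly (0.035%, 2). Cxcr6, with no uninjured counts, allows no estimate of these differences. Female day 11 replicate 3, whose Ddx3y and Xist went against its label, was counted as female in the day 11 and joint tests. Without it, too, no receptor passed in either. For Ccr2, uninjured levels were 0.643 ± 0.106 CPM in females and 1.60 ± 0.874 CPM in males (n = 3 each), a difference of -1.32 ± 0.49 (edgeR, adjusted p = 0.245). Its response was 2.21 ± 0.62 greater in females at day 15 (edgeR, adjusted p = 0.137) and 1.89 ± 0.62 greater at day 7 (0.335), and the day 7 difference passed without female day 7 replicate 1 (2.27, adjusted p = 0.0450). Ptprc had a difference in uninjured muscle in the same direction (0.702 ± 0.0344 against 1.72 ± 0.345 CPM, -1.29 ± 0.52, edgeR, adjusted p = 0.293).

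As a description of likeness, each receptor was set beside 13042 genes by Pearson's r of log2 CPM over the 24 injured libraries, which share depth and time. These were the tested genes with a mean of at least 1 CPM whose symbol was not a predicted, Riken or accession-type name. Ccr2 was nearest to Inpp5d (0.955), Nrros (0.953) and Ncf1 (0.948), and Cx3cr1 to Zc3h12d (0.964), Trem2 (0.963) and Apobec1 (0.963). Ddb1 (0.963) and Eno1 (0.948) were among the nearest to Ccr1, and Cxcr4 was nearest to Kif4 (0.958), Anln (0.953) and Nuf2 (0.952). Among the less abundant receptors, Cxcr3 was nearest to Ms4a4b (0.887), Cd7 (0.883) and Cd72 (0.879), Ccr7 to Klrk1 (0.841), Slamf8 (0.838) and Ccl22 (0.804), Cxcr2 to S100a9 (0.880), Map10 (0.864) and Actc1 (0.852), and Ccr3 to Nat2 (0.873), Orc1 (0.872) and Akna (0.858). Prelid3a (0.737) and Tnip3 (0.726) were among the nearest to Cxcr6. Over all 30 libraries, Orc1, Ccl22, S100a9 and Cd72 were again among the 3 nearest of their receptor. Between the 9 receptors, r ran from 0.225 for Ccr1 with Ccr7 to 0.845 for Ccr1 with Cxcr4, with a median of 0.567 over 36 pairs.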

How the data were processed

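Library preparation was commercial, per the labels' protocols. The submitters' processing notes name STAR, edgeR and the mm39 build, with no version or setting. Neither counting program nor annotation nor strand is given in the sources used here. The authors deposited 1 count per gene symbol, with 65.5 to 77.5% of low counts even, as when both reads of a pair are counted, so intervals were computed in read pairs.

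Counts were filtered with filterByExpr, scaled with TMM and fitted by edgeR 4.0.16 (glmQLFit, glmQLFTest, R 4.3.3) in a single fit of 10 group means, with sexes weighted equally. P-values had Benjamini-Hochberg adjustment over 17136 genes. The test was tried on simulated counts with far fewer changed genes than were called here, so that trial says little about these calls. Log2 CPM used a prior count of 2, and ratios added 2 to each count. No fold of a single gene is given where uninjured libraries of either sex held 6 counts or fewer. The lowest chi-square per degree of freedom between replicates was 16.2. Exon lengths came from GENCODE vM21 (GRCm38). Intervals cover counting error only, and floors stand in for absent uninjured counts and cover no error of the injured counts.

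Members and the 17 lists (178 genes) were chosen with earlier results of these data known. From each list, the 3 called genes with the largest day 4 change at a mean of at least 1 CPM could be named, with any ligand; the other list genes named here were chosen after their values were seen. 1 further receptor and some of the nearest genes are not reported here. Of 50-base stretches, Ccr2 shared 1.91% with a neighbouring paralog, Cxcr2 4.01% and Cx3cr1 0.269% with other genes, and the other 6 none; Cx3cr1 overlapped an opposite-strand gene over 1.73% of its exons. Alternatives were DESeq2 1.42.0, RLE or library-size scaling, other filters (none, or CPM above 1 in 3 libraries), a 2-fold threshold, only the compared groups, a replicate block, thinned or halved counts, and each library left out.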

Additional observations from a re-analysis of the deposited data

Results flagged for a closer look

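In 45 receptor and time groups of 6 libraries, 12 held a library farther from the rest than Dixon's 95% value allows. That value flags about 1 in 20 groups of normally distributed values. The groups here pool both sexes and are often near 0, so the 12 cannot be judged against that rate. Female day 11 replicate 2 was high for Ccr7 (10.2 CPM, others 1.10 to 3.26), Cxcr3 (6.64 CPM, others 1.16 to 2.08) and Cxcr6 (1.95 CPM, others 0.122 to 0.786). Female day 15 replicate 3 was high for Cxcr2 (1.40 CPM, others 0 to 0.143) and Cxcr6 (0.854 CPM, others 0.129 to 0.324). Ccr1 was high in male day 7 replicate 2 (7.02 CPM, others 0.886 to 2.49) and in male day 11 replicate 2 (3.12 CPM, others 0.327 to 1.13). Ccr7 was low in female day 4 replicate 2 (1.10 CPM, others 3.06 to 4.13).

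In uninjured muscle, where counts are few, male uninjured replicate 3 was high for Ccr2 (2.60 CPM, others 0.528 to 1.24) and was the only library with any Ccr3 (0.0763 CPM, others 0). Male uninjured replicate 1 was high for Ccr7 (0.532 CPM, others 0 to 0.184), and female uninjured replicate 2 for Cxcr2 (0.250 CPM, others 0 to 0.0919). Means without male day 7 replicate 2 and male day 11 replicate 2 were 1.48 in place of 2.40 and 0.873 in place of 1.25 CPM of Ccr1. The causes were not tested.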

How the results depend on the processing

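The counts of receptors called against uninjured muscle were 9, 9, 8 and 7 at days 4, 7, 11 and 15 in each of the 30 fits that left out 1 library. Counts that moved by over 1.5 times were some of those against a 2-fold change and some with 1 library left out. Against a 2-fold change there were 1 in place of 3 from day 4 to day 7 and 0 in place of 2 from day 11 to day 15. Leaving out 1 library gave 3 to 5 from day 4 to day 7, 1 to 2 from day 11 to day 15, and 0 to 1 for the sex difference at day 7 (Ccr2, without female day 7 replicate 1). Of 2873 values under alternatives, 1 was a count of nearest genes and the rest were of single receptors. Of these, 33 changed sign, all in 7 log2 differences between days that were called in neither fit.

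For Ccr7 from day 4 to day 7 (-0.0042), the values were 0.0159 with CPM above 1 in 3 libraries, 0.0104 with a replicate block, 0.00746 with only the compared groups, 0.0424 with thinned counts, 0.00854 with halved counts, and -0.225 to 0.172 without 1 library. For Ccr7 from day 7 to day 11 (0.025) they were -0.0827 with library size alone, -0.0799 with thinned counts and -0.609 to 0.243 without 1 library. Ccr3 from day 7 to day 11 (0.162) went to -0.000114 with library size alone and to -0.0952 to 1.42 without 1 library. Without 1 library, Ccr2 from day 7 to day 11 (-0.128) ran from -0.314 to 0.0546, and from day 11 to day 15 Cxcr4 (-0.031) ran from -0.140 to 0.122, Ccr1 (0.266) from -0.0654 to 0.691 and Cxcr2 (-0.182) from -1.48 to 0.750. From day 4 to day 7, Cxcr2 passed with only the compared groups (adjusted p = 0.0418) and Ccr3 with halved counts (0.0334). The causes were not tested.

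Libraries with the same replicate number had residuals with a mean r of 0.0125 (135 pairs), other pairs -0.00633 (270 pairs), and the nearest library carried the same number for 12 of 30. The numbers were not taken as pairing, and with a replicate block 9, 9, 8 and 7 receptors were called at the 4 days and 8 among the injured days. Filtering at CPM above 1 in 3 libraries left Ccr3 untested. With 13089999 counts in the smallest library, levels of Ccr3, Cxcr2 and Cxcr6 rest on few counts.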
